A study of Mus musculus with 6 samples.

Results

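Cluster 9 of the deposited PhenoGraph clustering holds colonic CD4 T cells with the transcripts of naive or central memory cells. Its members were taken as all cells with cluster number 9 and an assigned hashed replicate. They were 756 of 18658 such clustered cells, 703 of them among 9982 cells of the tdTomato-GFP- gate and 53 among 8676 cells of the tdTomato+GFP+ gate. Replicates 1 to 3 contributed 313, 193 and 197 cells to cluster 9 in tdTomato-GFP-, and 6, 20 and 27 cells in tdTomato+GFP+. The cells were sorted from the lamina propria, the connective tissue layer under the gut epithelium, of mice that carried Foxp3{delta}EGFPiCre/WT together with R26lsl-tdTomato/wt. All groups share this: 1 Foxp3 allele altered to carry EGFP and Cre recombinase, so that the Foxp3 locus drives Cre, 1 wild-type Foxp3 allele, and a tdTomato reporter that Cre switches on for good. What the {delta} in the name of the altered allele stands for is not taken up here. Foxp3 protein was not measured, and tdTomato+GFP+ cells are not taken to make it. Foxp3 is the master transcription factor of regulatory T (Treg) cells. The tdTomato+GFP+ gate took cells with both reporters and the tdTomato-GFP- gate took cells with neither, which can include Treg cells that use the wild-type allele, while cells with a single reporter are in neither gate. Each gate was 1 droplet lane with 3 hashed biological replicates, read for RNA, hashtags and T cell receptors, and gate therefore cannot be told apart from lane. There were 103 cell barcodes that occurred in both lanes, and 11 cluster 9 cells carried one of them, 10 of these in tdTomato-GFP-.

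Naive and central memory CD4 T cells recirculate between blood and lymph nodes and are few in healthy gut tissue. The chemokine receptor Ccr7 brings them into lymph nodes, the sphingosine 1-phosphate receptor S1pr1 lets them leave, and the factor Klf2 drives S1pr1. Effector and tissue memory cells lose these genes and gain adhesion, migration and cytokine genes. A naive cell has not yet divided in response to antigen, so its receptor is usually carried by very few cells, whereas memory and effector cells form clones.

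Cluster 9 cells of tdTomato-GFP- had a median of 3640, 3380 and 3536 UMIs and 1415, 1364 and 1396 genes per cell in replicates 1 to 3, against 3930, 3806.5 and 3896.5 UMIs and 1728, 1670 and 1701 genes in the other clusters of the gate. Their summed UMIs were 1176188, 677257 and 721364, and in tdTomato+GFP+ only 17639, 71935 and 95220. Ribosomal protein genes took a median of 34.0%, 33.3% and 34.1% of their UMIs against 17.8%, 18.6% and 18.7% in the other clusters, and mitochondrial genes 0.969% against 0.798% on average.

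The label was checked against its 4 markers, which had part in making the clusters, so these values describe the cells and test nothing. Levels are in CPM, the UMIs of a gene summed over the cells of a replicate and scaled to the same total for every sum. Igfbp4, a secreted protein that binds insulin-like growth factors and a common transcript of naive CD4 T cells, had 843, 983 and 1309 CPM in replicates 1 to 3 of cluster 9 and 15.7, 18.2 and 29.4 CPM in the pooled other clusters. Ccr7 had 2290, 2253 and 1140 CPM against 154, 137 and 110 CPM. Replicate 3 had the lowest Ccr7 level, as it had for Ifngr2 (210, 300 and 132 CPM) and Bach2 (199, 254 and 147 CPM), and the highest Igfbp4. Lef1, a transcription factor that keeps T cells in an uncommitted state, had 702, 743 and 718 CPM against 61.6, 49.7 and 60.4 CPM. S1pr1 had 535, 598 and 487 CPM against 48.5, 45.8 and 45.7 CPM. For each of the 4 genes the 3 replicates of cluster 9 lay above the mean level of each of the other 15 clusters. The next highest cluster means were 164 CPM for Igfbp4 (cluster 11), 441 CPM for Ccr7 and 185 CPM for Lef1 (both cluster 7), and 164 CPM for S1pr1 (cluster 14). In GRCm38 the annotation places Igfbp4 on chromosome 11 at 99041244 to 99054392 and Ccr7 close by at 99144196 to 99155077 on the same chromosome. Lef1 lies on chromosome 3 at 131110471 to 131224356 and S1pr1 on chromosome 3 at 115710433 to 115715072.

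**Figure D1:**
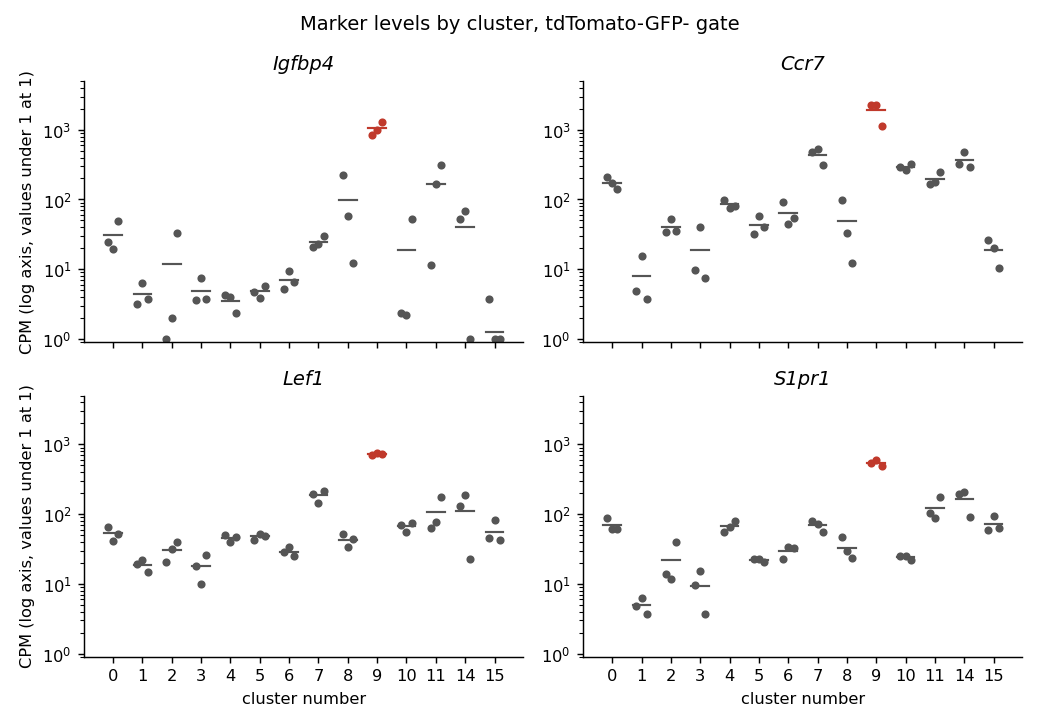
Level of the 4 markers (CPM, log axis, values under 1 drawn at 1) in each cluster of the tdTomato-GFP- gate, with clusters 12 and 13 left out. Points are the 3 replicates, lines their means, and red marks cluster 9, whose points lie at 843 to 1309 CPM for Igfbp4, 1140 to 2290 for Ccr7, 702 to 743 for Lef1 and 487 to 598 for S1pr1.

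Cell by cell, the markers were read in cells thinned to 2000 UMIs, which left out 42 of 703 cluster 9 cells and 582 of 9279 others. At least 1 of the 4 markers had a UMI in 95.3% ± 1.22 (SD, n = 3) of cluster 9 cells and in 21.6% ± 1.35 of the others. At least 2 had one in 84.9% ± 2.46 against 4.95% ± 0.125, and all 4 in 23.2% ± 1.03 against 0.161% ± 0.167. Ccr7 alone was seen in 76.9% of the thinned cells and 83.6% before thinning, and in the Il17a-rich clusters 1, 2 and 3 of the gate in 2.61% and 3.95%. A UMI of 1 or more of 9 cytokine genes (Il17a, Il17f, Ifng, Il4, Il5, Il13, Il22, Il10 and Csf2) was found in 4.82% ± 0.703 of cluster 9 cells against 52.8% ± 0.696 of the others. A UMI of S100a4, S100a6 or Lgals1 was found in 26.6% ± 0.582 against 89.5% ± 0.381. These gene sets were put together after their values had been seen.

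Markers of other cell types were lower in cluster 9 than in the rest of the gate for B and plasma cells (10.3 to 12.5 against 25.6 to 87.4 summed CPM over 9 genes), myeloid and dendritic cells (114 to 155 against 321 to 365), NK and innate lymphoid cells (a mean of 15.2 against 68.1), gamma delta T cells (0 to 5.91 against 56.6 to 89.8), innate-like T cells (0 to 6.93 against 25.9 to 32.7) and epithelium (0.850 to 6.93 against 21.4 to 79.7). At 0 UMIs in cluster 9 were 4 of 9 B and plasma cell genes, 1 of 10 myeloid, 2 of 6 NK and innate lymphoid, 3 of 6 gamma delta, 1 of 3 innate-like and 5 of 8 epithelial genes. Not lower were Cd8b1, the measured CD8 T cell marker, at 10.2, 22.1 and 5.55 CPM against 7.45, 7.26 and 6.57, and the 9 stromal and endothelial markers, at 107, 354 and 92.9 summed CPM against 107, 80.5 and 52.4. Of the stromal and endothelial sum, Pecam1, an adhesion molecule of endothelium that naive T cells also carry, made up 107, 100 and 92.9 CPM. The remainder lay in replicate 2. Part of it was Igfbp7 at 103 CPM and Col1a1 at 28.1 CPM, both at 0 in replicates 1 and 3, and the rest came from other genes of the list. The part of stromal RNA in the levels of replicate 2 was not tested.

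Against the other clusters of the gate, 1168 of 6364 genes at 20 CPM or more on either side were higher in all 3 replicates (18.4%) and 3288 were lower in all 3 (51.7%). The clustering used these genes, so nothing is read from the counts. Ratios are log2 of (cluster 9 CPM + 20) over (other clusters' CPM + 20), averaged over replicates. The ribosomal protein share sets part of them: with those genes left out of the totals, the median ratio of the 6364 genes moved from -0.16 to 0.02 and the counts to 2205 higher (34.6%) and 1990 lower (31.3%). No list median named below changed its sign in that setting.

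Beside the 4 markers, the 20 highest ratios included Ly6c1 (2.91), a surface protein of naive and memory T cells, and Actn1 (2.89), a cytoskeletal crosslinker. Dapl1 had 95.2, 73.8 and 154 CPM against 0.598, 0.878 and 2.29 CPM. Also among them were the long non-coding RNA gene Gm2682 (2.43), the interferon gamma receptor chain gene Ifngr2 (2.28), Rflnb (2.23) and Bach2 (2.19), a repressor of effector programmes. Cmah (2.17) and St8sia6 (2.10), enzymes of sialic acid chemistry, Il6ra (2.07), Klf2 (2.06), Treml2 (1.95), Atp1b1 (1.94), Gpr18 (1.93) and Rasgrp2 (1.86), an activator of the integrin switch Rap, belonged to them too. Klf2 stood at 4000, 3996 and 4193 CPM, and its highest level elsewhere was 2569 CPM in cluster 8.

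The naive and central memory list had 25 genes, and 24 of them were higher in cluster 9 in all 3 replicates, with a median ratio of 1.65 beside -0.16 over all genes. Satb1, a chromatin organiser, had 530, 478 and 455 CPM against 140, 144 and 141 CPM. Bcl2, which protects from cell death, had 179, 192 and 227 CPM against 59.8, 58.0 and 55.6 CPM. Tcf7, the partner factor of Lef1, had 951, 892 and 880 CPM against 314, 268 and 282 CPM, yet it was higher still in cluster 7, at 1139, 1120 and 1060 CPM. The exception was Il7r, the survival receptor for interleukin 7, with 396, 478 and 363 CPM against 350, 410 and 388 CPM. Il7r was higher in 4 other clusters than in cluster 9, among them cluster 0 at 643 ± 47.6 CPM and cluster 14 at 1314 ± 56.5 CPM.

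Homing genes were found on both sides. Of 15 lymph node homing, exit and tissue retention genes at 20 CPM or more, 6 were higher in all replicates, among them Ccr7, S1pr1, S1pr4, Klf2 and Klf3, which act in entry to and exit from lymph nodes. Lower in all replicates were 8, a share near the 51.7% of all genes, among them Cxcr6 (9.35, 5.91 and 16.6 against 470, 408 and 501 CPM), Itgae (5.95, 7.38 and 11.1 against 42.9, 72.1 and 76.3 CPM), the integrin chain that holds T cells at epithelium, and the gut homing receptors Ccr9 (0.850, 0 and 1.39 against 17.1, 22.7 and 26.0 CPM) and Gpr15 (5.95, 4.43 and 5.55 against 33.0, 46.2 and 55.8 CPM). Cd69, which antagonises S1pr1 at the cell surface, had 291, 254 and 226 CPM against 597, 615 and 710 CPM, the lowest mean of the 16 clusters. The gut homing integrin chains Itgb7 (314, 306 and 344 against 566, 556 and 560 CPM) and Itga4 (97.8, 139 and 122 against 197, 195 and 192 CPM) were still well detected.

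All 23 memory and effector genes were lower in all 3 replicates, with a median ratio of -2.77. Cd44, the adhesion receptor used to tell memory from naive T cells, had 28.1, 28.1 and 43.0 CPM against 243, 258 and 249 CPM, the lowest mean of the 16 clusters. S100a6, a calcium binding protein of memory cells, had 48.5, 67.9 and 38.8 CPM against 1175, 1009 and 970 CPM. Bhlhe40, a factor that supports cytokine production, had 73.1, 78.3 and 66.5 CPM against 1573, 1448 and 1363 CPM. Ahnak (-3.32) and S100a4 (-3.52) were likewise among the 10 lowest ratios.

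Most cytokine and lineage genes were lower in cluster 9. Il17a, at 11.9, 8.86 and 5.55 CPM against 1937, 1560 and 2127 CPM, had the lowest ratio of all genes (-6.04). Areg (-4.24), Il17f (-3.70), the cytotoxic granule protease Gzmb (-3.66) and Ifng (-3.39) also belonged to the 10 lowest. Of 18 effector cytokine genes 17 were lower in all replicates, and only Ltb, a member of the lymphotoxin pair that resting T cells make, was level, at 689, 622 and 902 CPM against 690, 677 and 747 CPM. Every Th1 (11), Th2 (7), Th17 (13) and Treg (11) list gene at 20 CPM or more was lower in all replicates, with median ratios of -1.56, -1.84, -2.76 and -2.35. Of 12 follicular helper genes 9 were lower and 1 was higher, Slamf6, a receptor of less differentiated T cells (167, 179 and 177 against 88.9, 65.3 and 78.7 CPM).

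Genes of activation, glycolysis and division were lower as well. Of 17 activation genes 15 were lower (median -1.08), such as the co-stimulatory receptor gene Tnfrsf4 with 120, 112 and 74.9 CPM against 759, 907 and 743 CPM, while Myc was higher, with 103, 96.0 and 129 CPM against 63.3, 68.9 and 80.4 CPM. All 13 glycolysis genes (median -0.76) and all 13 cell cycle genes (median -1.09) were lower. The proliferation gene Mki67 had 0, 2.95 and 1.39 CPM against 80.9, 69.3 and 53.3 CPM. Of 19 quiescence genes 10 were higher and 4 lower (median 0.18), with Pik3ip1, an inhibitor of PI3 kinase, at 68.9, 72.4 and 85.9 CPM against 7.68, 7.58 and 11.3 CPM. Of 8 Gimap genes, small GTPases of lymphocyte survival, 6 were higher and Gimap7 was lower (101, 124 and 154 against 240, 251 and 286 CPM).

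Cytokine receptor genes differed by receptor: 6 of 22 were higher and 15 lower. The counts of this paragraph stand beside 18.4% higher and 51.7% lower over all genes, and nothing is read from them. Higher were both chains of the interleukin 6 receptor, Il6ra (126, 128 and 159 against 19.0, 15.8 and 17.4 CPM) and Il6st (116, 102 and 104 against 53.7, 40.0 and 35.4 CPM), with Ifngr2, Il4ra, Tgfbr2 and Il21r. The receptor chains of interleukin 2 (Il2ra and Il2rb), 12, 18, 23 and 1 were among the lower ones, such as Il2rb at 64.6, 69.4 and 69.3 CPM against 398, 374 and 348 CPM. Of 18 receptor complex and signalling genes 13 were lower and 4 higher, with a median of -0.39 that moved to -0.13 once ribosomal protein genes left the totals. Of 17 interferon response genes 11 were higher (median 0.48), among them Ifit3 (90.1, 22.2 and 25.0 against 8.64, 2.79 and 1.86 CPM), highest in replicate 1. Ifit1, with 82.5, 31.0 and 8.32 CPM against 19.3, 9.18 and 8.71 CPM, was not higher in replicate 3. All 33 ribosomal protein and translation factor genes were higher (median 0.74). Of 15 stress and immediate early genes 10 were lower and none was higher (median -0.53), and of 13 mitochondrial genes 10 were higher and 1 lower (median 0.24).

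**Figure D2:**
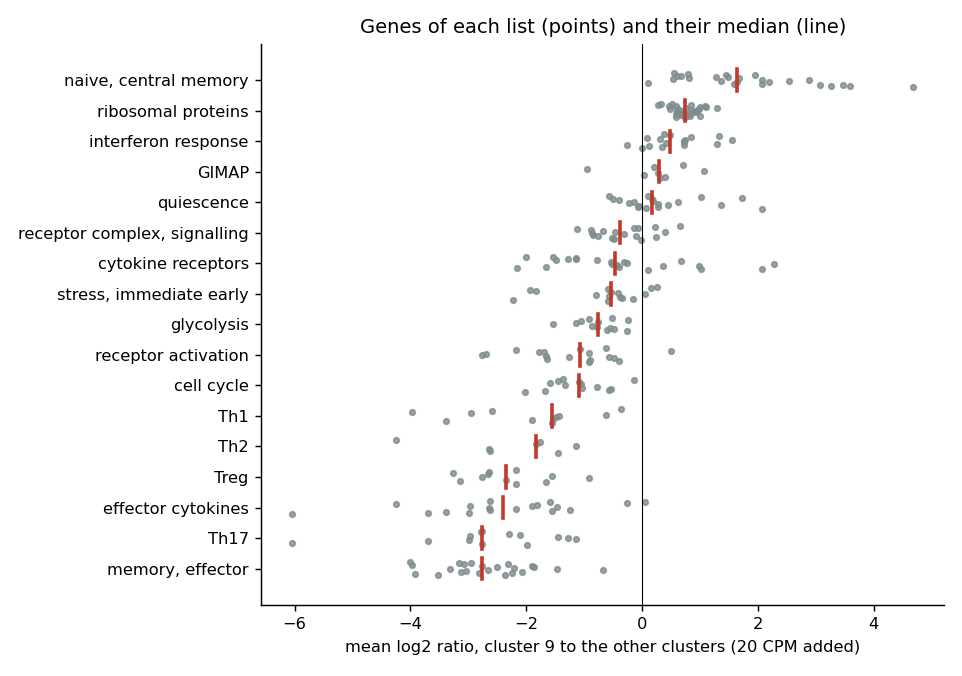
Mean log2 ratio of cluster 9 to the other clusters of tdTomato-GFP- (20 CPM added to both) for the genes of 17 lists, with 1 point for each gene and a red line at each list's median. The naive and central memory list has its median at 1.65, and the effector cytokine, Th17 and memory lists have theirs between -2.40 and -2.77.

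The clusters with the likest profile were 7, 0 and 11, with Pearson r of 0.940, 0.931 and 0.923 over 8959 genes, a description across genes, which are not replicates. Cluster 7 shared Tcf7 and had the next highest Ccr7 and Lef1, but cluster 9 had less of the inhibitory receptors Lag3 (32.3, 13.3 and 2.77 against 527, 636 and 381 CPM) and Tigit (22.1, 59.1 and 30.5 against 810, 847 and 629 CPM), of Tox2 and of Ikzf2. Against cluster 0 the largest shortfalls of cluster 9 were in Bhlhe40 (-4.06) and the type 2 cytokine genes Il13 (-3.97) and Il4 (-3.53). Against cluster 11 they were in Il17a (-5.26), Cxcr6 (-3.58) and Bhlhe40 (-3.51), and Lars2, which cluster 11 held at 22574, 21024 and 24622 CPM, had 2489, 2664 and 2373 CPM in cluster 9.

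Receptor chains were read in a library of their own, and clonotypes were no part of the rule that chose the cells. The RNA table also holds receptor segment genes, and whether the clustering used them is not given in the sources used here. Both receptor chains were found in 229, 143 and 142 cluster 9 cells of tdTomato-GFP-, 73.2%, 74.1% and 72.1% of the cells, against 72.2%, 71.4% and 69.0% elsewhere in the gate. A clonotype was defined by the V and J segments and the junction nucleotides of the first alpha and the first beta chain. The 514 cells carried 514 different clonotypes. Set against 3 counts over the 514 cells pooled from 3 replicates, the 0 second cells of a clonotype within the cluster give a limit of 0.584% of cells. Whether a second cell was found also depended on the 229, 143 or 142 cells read in the replicate. The limit therefore does not bound the share of cells whose clonotype is expanded in the tissue. It and the other limits cover counting error only.

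Beyond the cluster, 14 of the 514 clonotypes (4, 2 and 8 in replicates 1 to 3) also occurred in other clusters of the same replicate and gate. The largest of each replicate are given to show what these shared receptors are. Their junctions run 5' to 3' from the conserved cysteine codon to the phenylalanine codon, in lower case, and nothing is in capitals because no base is singled out.
Replicate 1, TRAV6N-6 and TRAJ15, alpha: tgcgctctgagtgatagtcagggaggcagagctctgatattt
Replicate 1, TRBV10 and TRBJ2-7, beta: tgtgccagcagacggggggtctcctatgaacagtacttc
Replicate 2, TRAV12-2 and TRAJ53, alpha: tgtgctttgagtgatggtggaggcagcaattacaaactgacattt
Replicate 2, TRBV5 and TRBJ2-7, beta: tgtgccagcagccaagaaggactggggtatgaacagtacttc
Replicate 3, TRAV21-DV12 and TRAJ49, alpha: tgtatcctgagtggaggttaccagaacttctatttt
Replicate 3, TRBV12-2+TRBV13-2 and TRBJ2-5, beta: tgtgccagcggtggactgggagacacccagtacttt

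The replicate 1 receptor was in 6 cells of its replicate and gate, 1 of them in cluster 9 and 2 in cluster 15. The replicate 2 receptor was in 6 cells, 1 in cluster 9 and 4 in cluster 0. The replicate 3 receptor was in 13 cells, 1 in cluster 9, 4 in cluster 0 and the others in 5 further clusters. These 3 were in neither the tdTomato+GFP+ gate nor another replicate. Of the 14 shared clonotypes 8 were also seen in cluster 0, 1.56% of the cluster 9 clonotypes and 0.787% of the 1016 clonotypes of cluster 0. Cluster 0 had the most clonotypes of the other clusters. The share of a cluster's own clonotypes was higher in clusters 11 (1.55%), 15 (1.30%), 8 (1.18%) and 6 (0.813%) and lower in the rest. The 8 are therefore not read as particular to cluster 0.

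A single further clonotype of cluster 9, seen nowhere else in tdTomato-GFP-, was found in 1 cell of the tdTomato+GFP+ gate of the same replicate, replicate 3. It is given as the only receptor of the cluster seen in both gates.
Replicate 3, TRAV14D-3-DV8 and TRAJ31, alpha: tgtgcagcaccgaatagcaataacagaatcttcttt
Replicate 3, TRBV5 and TRBJ2-7, beta: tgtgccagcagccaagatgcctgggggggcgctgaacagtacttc

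Expanded cells, those whose clonotype was in 2 or more cells of the replicate and gate, made up 1.75%, 1.40% and 5.63% of cluster 9 receptor cells and 63.8%, 58.1% and 52.4% of those in the other clusters. The difference of means was -55.2 percentage points (SD of the 3 paired differences 7.79), lower in 3 of 3 replicates. A two-sided exact permutation test with replicates as pairs gave p = 0.25, the smallest that 3 pairs allow. Without the cells whose barcode was in both lanes, an alternative chosen after seeing the data, it was -55.0 points. Counted within each cluster only, cluster 9 had no expanded cell and the difference was -35.4 points. Since no clonotype was in 2 cells of the cluster, the expanded cells are the cells of the 14 shared clonotypes. Each of the 11 clusters with at least 20 receptor cells in every replicate was also higher than cluster 9 in 3 of 3 replicates, with exact permutation p = 0.25 and 0.25 after adjustment over the 11. Next lowest was cluster 7, at 45.3%, 30.1% and 36.0%, and the highest was cluster 1, at 92.0%, 83.6% and 94.7%.

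Equal draws put clusters of unequal size on the same footing. In a draw of 22 cells cluster 9 gave 22 different clonotypes in each replicate, against 21.5, 21.3 and 21.3 in the other clusters pooled. In a draw of 100 it gave 100 against 91.9, 89.5 and 88.8, with cluster 7 at 95.1, 96.0 and 97.0. A pair of cells from the same replicate shared a clonotype in 0% of cluster 9 pairs and in 0.219%, 0.317% and 0.303% of pairs in the other clusters (exact permutation p = 0.25 in each case, the smallest possible). Such values were not confined to cluster 9. Cluster 11 in replicate 2 (49 receptor cells) and cluster 14 in replicate 1 (25 receptor cells) also gave 22 clonotypes in a draw of 22 and 0% of pairs. Against cluster 11 alone, both measures had exact permutation p = 0.5. Of the distinct clonotypes of cluster 9, 2.93% ± 2.35 (SD, n = 3) were found in other clusters of the gate, and the mean of the other clusters for their own clonotypes was 49.0% ± 4.32, with cluster 5 lowest at 23.4% ± 3.96. In the tdTomato+GFP+ gate were found 0%, 0% and 0.704% of cluster 9 clonotypes against 1.26%, 2.11% and 4.70% of the clonotypes of the other clusters, lower in 3 of 3 replicates (exact permutation p = 0.25).

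**Figure D3:**
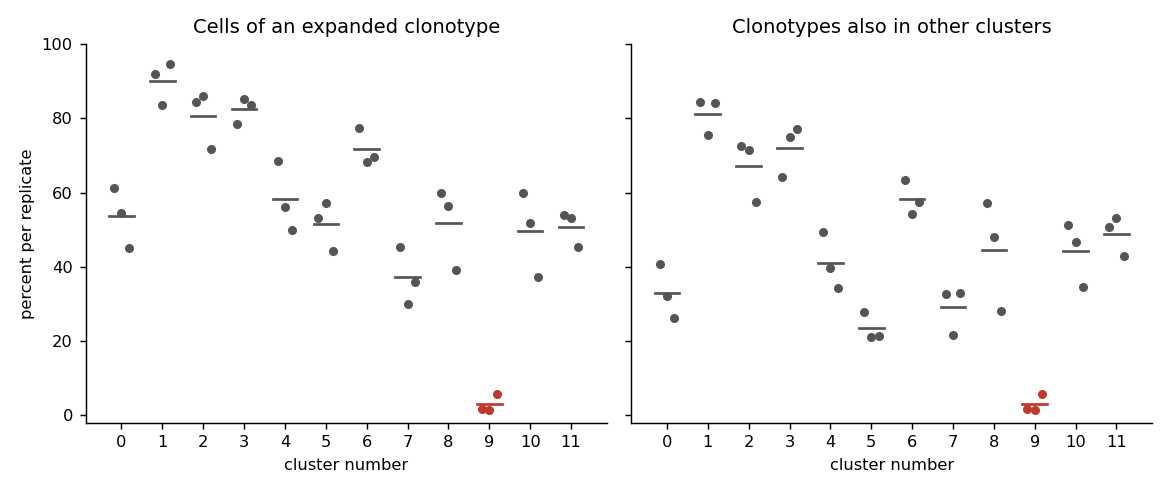
Left, percent of receptor cells whose clonotype was in 2 or more cells of the replicate and gate; right, percent of a cluster's distinct clonotypes also found in other clusters of the gate. Points are the 3 replicates of tdTomato-GFP-, lines their means, and red marks cluster 9, at 1.40% to 5.63% on both sides, below each point of the other 11 clusters shown.

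The segments of these receptors were compared with those of the rest of the gate. With edgeR's quasi-likelihood test and Benjamini-Hochberg adjustment on counts of distinct clonotypes, 0 of 15 alpha V segments (0% higher, 0% lower) and 0 of 14 beta V segments (0% and 0%) passed. At an unadjusted p under 0.05, 2 alpha segments were higher and 0 lower, and 1 beta segment was higher and 0 lower. The 2 alpha segments met the filter on low counts only through cluster 9, where they were high. A segment this rare elsewhere could be tested only if higher in cluster 9, so the count of 2 gives no support. DESeq2 called 0 in each case. The alpha segments with the lowest p were TRAV14D-3-DV8, in 4.80%, 2.80% and 2.82% of cluster 9 clonotypes against 1.32%, 1.85% and 1.17%, and TRAV9-1, in 2.62%, 2.80% and 4.23% against 1.49%, 1.14% and 1.17%, with edgeR adjusted p of 0.274 and 0.285. The beta segment was TRBV13-3, in 4.80%, 9.79% and 8.45% against 4.69%, 4.93% and 4.41% (edgeR adjusted p = 0.685). When cells were counted in place of clonotypes, 3 alpha segments passed, TRAV14-2, TRAV14D-3-DV8 and TRAV6N-7, with edgeR adjusted p of 0.0120, 0.0120 and 0.0421. A large clone then counts once for each of its cells, which are not independent. These 3 calls are therefore not read as support. The families of these segments hold near-identical copies, so the assignment of a receptor among them is uncertain.

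The beta junction was on average 41.4, 42.0 and 41.8 bases long in cluster 9 and 41.3, 41.3 and 41.4 bases in the other clusters, longer in 3 of 3 replicates by 0.43 ± 0.31 bases (exact permutation p = 0.25). Alpha junctions had 40.7, 39.9 and 40.8 bases against 40.9, 40.9 and 40.7, with no common direction. An extra alpha chain was seen in 6.99%, 9.09% and 9.86% of receptor cells against 11.5%, 18.9% and 12.5%, lower in 3 of 3 replicates (exact permutation p = 0.25). The alpha chain pairing TRAV11 with TRAJ18, typical of NKT cells, was in 0 of 514 cluster 9 cells and in 9 of 6625 others. Receptor transcripts per cell had a median of 7, 7 and 8 beta chain UMIs against 8, 8 and 7. Hashtag UMIs, which come from antibodies on the cell surface, were lower in cluster 9, at a median of 1468, 2987 and 1854 against 2254, 4557.5 and 2872 (3 of 3 replicates, exact permutation p = 0.25). The same held in tdTomato+GFP+, at 983.5, 2658.5 and 1594 against 1477, 3320 and 2057.

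The few expanded cells of the cluster were set against its single-cell clonotypes. They were 4, 2 and 8 cells in replicates 1 to 3, with 12344, 8594 and 35168 UMIs, against 225, 141 and 134 cells with 872350, 506880 and 493398 UMIs. The expanded cells had more RNA of Cxcr3, Rgs1, Rora and Maf and less of Igfbp4 and Lef1, while Ccr7 and S1pr1, the other markers of the cluster, did not pass the test. With edgeR's quasi-likelihood test and replicate as a block, 8 of 3453 genes were higher (0.232%) and 32 lower (0.927%) at a Benjamini-Hochberg adjusted p under 0.05. Cxcr3, a chemokine receptor of Th1 and memory cells, had 12.6, 21.7 and 10.1 CPM in single and 324, 233 and 256 CPM in expanded cells (log2 fold change 3.88, SE 0.57, edgeR adjusted p = 4.52e-08). All 3 expanded values lay above all 3 single ones, but Cxcr3 was picked by the test on these same values, so this adds no support. The fold changes are scaled by TMM factors and the CPM are not. Rgs1, a signalling brake of tissue T cells, had 167, 256 and 170 CPM against 1215, 465 and 1479 CPM in expanded cells (2.14, SE 0.39, edgeR adjusted p = 3.65e-05). The transcription factors Rora (8.02, 17.8 and 18.2 against 81.0, 349 and 114 CPM in expanded cells) and Maf (49.3, 51.3 and 62.8 against 567, 116 and 284 CPM), both of effector cells, also rose. So did Hsph1, a heat shock protein, Gimap7, and Abcb1a, a drug efflux pump. The receptor segment Trav14d-3-dv8 passed as higher too, though it was at 0 CPM in the expanded cells of replicate 2. Since cells were split by clonotype, its level depends on which receptors fell on each side and is not read as expression. Of the 14 tested memory and effector genes, out of 23 in the list, 3 rose (Cxcr3, Rora and Maf) and none fell. Their median log2 fold change was 1.75 beside -0.34 over all 3453 genes. Cxcr3 and Rora met the filter on low counts only through the expanded cells, where they were high. Their own calls and the list's counts and median depend on that filter and are not read as support.

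Igfbp4 had 857, 984 and 1334 CPM in single and 0, 0 and 341 CPM in expanded cells (log2 fold change -2.95, SE 0.44, edgeR adjusted p = 5.40e-08). Lef1 had 687, 783 and 768 against 162, 0 and 227 CPM, and Actn1 357, 410 and 347 against 0, 116 and 85.3 CPM. Of 24 tested naive and central memory genes 4 fell, these 3 among them, and none rose, beside 0.927% lower over all genes. Their median was -1.56 beside -0.34 over all genes. Igfbp4, Lef1 and Actn1 met the filter on low counts only through the single cells, where they were high. Their own calls and the list's count and median depend on that filter and are not read as support. Ccr7 (2411, 2322 and 1234 against 567, 0 and 967 CPM, edgeR adjusted p = 0.195) and S1pr1 (522, 576 and 521 against 243, 349 and 370 CPM, edgeR adjusted p = 0.341) did not pass. Klf2 had 3793, 3938 and 4080 CPM in single and 5185, 6283 and 4948 CPM in expanded cells, and Tcf7 962, 892 and 908 against 972, 698 and 825 CPM, neither past the threshold. Tubb2a and Ly6c1 were at 0 in all expanded cells, at least 5.43-fold and 3.59-fold lower than in single cells when set against 3 counts over the group's 56106 UMIs. Limd2, Npc2 and Samhd1 fell too, and 10 of the 33 ribosomal protein list genes fell, among them Rps20 (log2 fold change -0.94, SE 0.19, edgeR adjusted p = 0.000276).

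The 17 genes of largest change that are reported here kept their sign in each other setting, but the counts rest on few cells. DESeq2 called 1 gene higher (Cxcr3) and 1 lower (Igfbp4). Without replicate 1 there were 3 higher and 2 lower, without replicate 2 the lower ones were 6, and without replicate 3 there were 1 higher and 71 lower. Cxcr3 and Igfbp4 passed in each of the 8 other settings, which largely reuse the same few expanded cells.

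**Figure D4:**
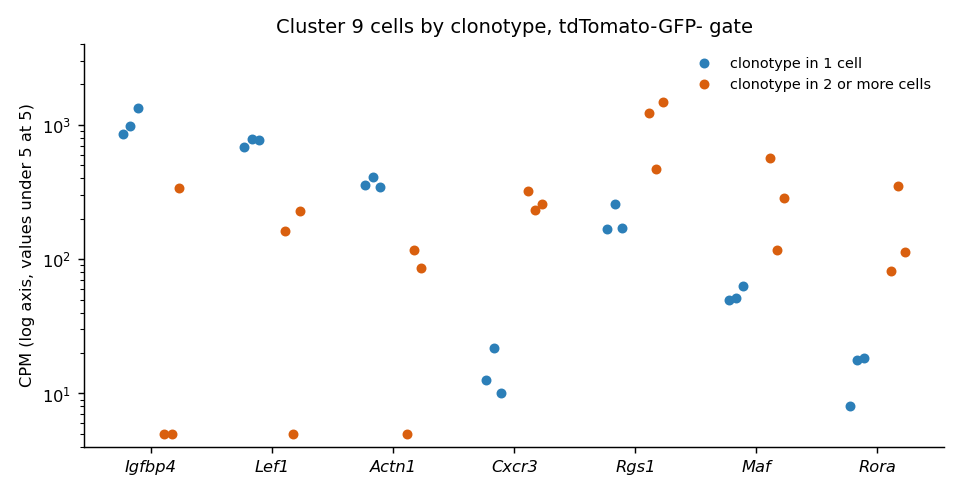
CPM (log axis, values under 5 drawn at 5) of 7 genes in cluster 9 cells of tdTomato-GFP-, chosen after their values were seen. Blue points are cells of clonotypes found in 1 cell and orange points those of clonotypes found in 2 or more, with 1 point for each replicate. The orange points lie below the blue ones for Igfbp4, Lef1 and Actn1, and above them for Cxcr3, Rgs1, Maf and Rora.

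Cells of the cluster also differed among themselves in ways that the label does not name. After thinning, the variance over the mean of UMIs per cell had a median near 1.04 over genes, and these genes were picked for their high values. It was 5.56, 5.01 and 6.49 for Junb and 5.30, 4.66 and 5.98 for Klf2, which are both abundant. It was 3.89, 4.86 and 3.56 for Ccr7 and 3.43, 3.43 and 3.85 for Igfbp4. The interferon response gene Isg15 had 6.24 in replicate 1 against 1.74 and 1.76 in replicates 2 and 3, and the heat shock gene Hspa1a had 1.82 UMIs per thinned cell in replicate 3 against 0.443 and 0.403.

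Foxp3, the altered gene, was low in cluster 9 in both gates. In tdTomato-GFP- it had 41.7, 26.6 and 16.6 CPM, from 17, 9 and 7 cells with a UMI. In tdTomato+GFP+ it had 56.7, 41.7 and 73.5 CPM, from 1, 2 and 5 cells. The lowest value of tdTomato+GFP+ and the highest of tdTomato-GFP- were nearly equal, and edgeR's quasi-likelihood test gave a log2 fold change of 0.88 (SE 0.55, adjusted p = 0.853). Cells with a UMI were 4.55% ± 0.944 against 15.1% ± 4.48 (exact permutation p = 0.1, the smallest that 3 against 3 allows) and after thinning 2.78% ± 1.48 against 10.0% ± 10.0 (exact permutation p = 0.4). In tdTomato-GFP- the mean share was below that of the Il17a-rich clusters 1, 2 and 3 of that gate (6.71% unthinned, 3.97% thinned). It was lower in each replicate unthinned (5.43%, 4.66% and 3.55% against 7.75%, 6.99% and 5.38%), but not in thinned replicate 2 (3.87% against 3.25%). Whether these UMIs came from the cells themselves was not tested. In cluster 5, where Foxp3 was highest, the unthinned share was 79.3%.

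Cluster 9 held 6.14%, 6.29% and 10.9% of the clustered cells of tdTomato-GFP- and 0.348%, 0.439% and 1.13% of those of tdTomato+GFP+. The shares did not overlap between gates (mean difference -7.12 percentage points, exact permutation p = 0.1, the smallest that 3 against 3 allows). The shares of all clusters are tied by their sum, and clusters 1, 2, 3, 12 and 13, led by Il17a, fill much of tdTomato+GFP+. Among the cells outside these the shares were 6.96%, 6.96% and 12.4% against 1.34%, 1.27% and 2.74% (exact permutation p = 0.1). The sort by reporters set which cells could enter each gate. Replicate 3 had the highest share in both gates.

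Between the gates, cluster 9 cells of tdTomato+GFP+ had more RNA of some effector genes and less Ly6c1, on the basis of 6, 20 and 27 cells. With edgeR's quasi-likelihood test and Benjamini-Hochberg adjustment, 9 of 4809 genes were higher in tdTomato+GFP+ (0.187%) and 3 lower (0.0624%). Ctla4, an inhibitory receptor of Treg and activated cells, had 200, 179 and 123 CPM in the cells without reporters and rose to 1077, 681 and 462 CPM in tdTomato+GFP+ (log2 fold change 1.79, SE 0.22, edgeR adjusted p = 2.44e-09). Ahnak had 72.3, 72.4 and 58.2 against 397, 389 and 231 CPM (2.09, SE 0.28, edgeR adjusted p = 2.49e-08), and Rgs1 230, 248 and 288 against 1531, 667 and 567 CPM (1.43, SE 0.21, edgeR adjusted p = 7.76e-07). Ccr4, a skin and Th2 homing receptor, had 10.2, 5.91 and 19.4 against 56.7, 222 and 63.0 CPM. Il17a (11.9, 8.86 and 5.55 against 113, 97.3 and 63.0 CPM), Lgals3, Hopx, Prr13 and S100a10 also rose. The gates did not overlap for the 9 genes, but the genes were picked by the test on these same values, so this adds no support. Of 17 tested memory and effector genes, out of 23 in the list, 3 rose (Ahnak, S100a10 and Lgals3), with a median of 1.08 beside -0.07 over all genes. Il17a and Ccr4 met the filter on low counts only through tdTomato+GFP+, where they were high. Their own calls and the list's count and median depend on that filter and are not read as support.

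The other clusters of tdTomato+GFP+ held Il17a at 13077, 10915 and 9223 CPM against 1937, 1560 and 2127 CPM in those of tdTomato-GFP-, Ctla4 at 3268, 2933 and 2523 against 1792, 1592 and 1433 CPM, and Rgs1 at 3313, 3420 and 3688 against 1955, 1959 and 2317 CPM. Ahnak overlapped between the gates there, at 834, 995 and 941 against 850, 901 and 808 CPM. The part of free RNA from these cells in the values of cluster 9 was not tested.

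Lower in tdTomato+GFP+ was Ly6c1, with 195, 115 and 202 CPM against 56.7, 27.8 and 0 CPM (log2 fold change -3.47, SE 0.59, edgeR adjusted p = 0.000206). The linker histone gene Hist1h1e had 299, 368 and 324 against 113, 167 and 73.5 CPM (-1.62, SE 0.31, edgeR adjusted p = 0.000390). The other clusters also had less Hist1h1e in tdTomato+GFP+ (233, 197 and 244 against 382, 347 and 365 CPM). The receptor segment Trav14-2, which has near copies, was at 0 in all 3 replicates of tdTomato+GFP+, at least 3.23-fold lower when set against 3 counts over the 184794 UMIs of the group. None of the 25 naive and central memory genes passed, with a median of -0.65. Lef1 came nearest, with 702, 743 and 718 against 397, 417 and 431 CPM (-0.89, SE 0.23, edgeR adjusted p = 0.0539). Igfbp4 had 843, 983 and 1309 against 0, 681 and 630 CPM (edgeR adjusted p = 0.853), and Klf2 4000, 3996 and 4193 against 4082, 4504 and 3329 CPM (edgeR adjusted p = 0.952).

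All 12 genes kept their sign in each setting in which they were tested, and Ctla4 and Ahnak passed in all 10 other settings. The counts depended on single replicates. In tdTomato-GFP-, leaving out replicate 1 gave 2 higher and 0 lower, replicate 2 gave 3 and 1, and replicate 3 gave 4 and 0. In tdTomato+GFP+, leaving out replicate 1 gave 5 higher, replicate 2 gave 7 lower, and replicate 3 gave 18 higher and 8 lower.

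**Figure D5:**
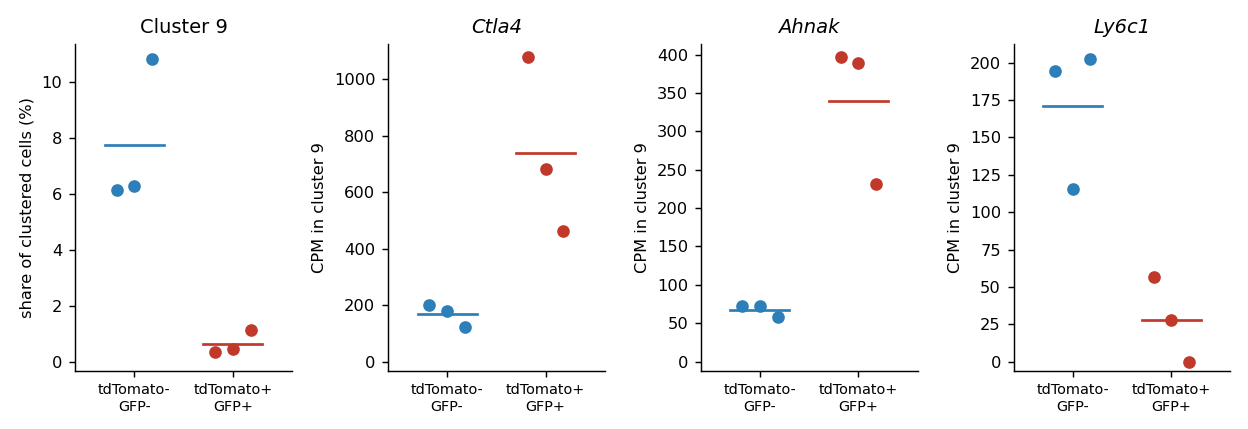
Share of cluster 9 among clustered cells (percent) and CPM of Ctla4, Ahnak and Ly6c1 in cluster 9 cells, by gate. Points are the 3 replicates and lines their means. The gates do not overlap in any of the 4 panels, with shares of 6.14% to 10.9% against 0.348% to 1.13%. The 3 genes were picked from those that passed the test on these values.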

How the data were processed

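CD4 T cells of 2 gates, each 1 lane with 3 hashed replicates, were measured for RNA, hashtags and receptors. The deposited tables hold UMI counts per gene and cell, the authors' cluster and replicate calls, receptor chains with UMI counts and the fraction of a cell's hashtag counts that came from its main hashtag. Cell Ranger and Scanpy 1.7.2, with GRCm38, are named in the submitters' processing notes. Whether 3' or 5' chemistry was used is not given in the sources used here, nor is the treatment of doublets, and no doublet caller was run.

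Of 18874 assigned cells, 216 without a cluster were left out. Counts were summed per replicate. CPM is UMIs scaled to a common total. Genes are described with 20 CPM added before log2. Tests used edgeR 4.0.16 (glmQLFit robust, glmQLFTest, filterByExpr with a minimum count of 10, TMM factors, none for V segments) run in R 4.3.3, Benjamini-Hochberg adjusted p-values over every tested gene and a threshold of 0.05, and DESeq2 1.42.0 as an alternative. Thinning drew 2000 UMIs without replacement in Python 3.11.15. Single values were compared by two-sided exact permutation tests over replicates. Named genes are the 20 highest and 10 lowest ratios with the same sign in all replicates, the 10 largest rises and 10 largest falls of each fit, and list members. The members and gene lists were chosen with earlier results of these data known. Lists are described by counts and medians without a list test. With 200 genes changed in simulated data, edgeR recovered 16% at 2-fold and 64% at 4-fold in the gate comparison of 4809 genes, with 3 false calls, and 3% and 31% in the expanded clonotype comparison of 3453 genes, with 0 false calls. The simulated data had a dispersion of 0.02 for every gene and no replicate effect. Whether these rates hold for sums over few cells of different replicates was not tested. A planned comparison within the cluster and the values of some genes are not reported here.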

Additional observations from a re-analysis of the deposited data

Results flagged for a closer look

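The beta chain junction length differed from that of the other clusters in opposite directions in the 2 gates, in every replicate. In tdTomato-GFP- the cluster 9 junctions were longer by 0.427 bases on average, and in tdTomato+GFP+, with 3, 13 and 22 receptor cells, they were shorter (cluster 9 minus other clusters -0.782 bases). The difference between the gates was not tested.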

How the results depend on the processing

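Of 740 values under other settings, 112 for comparisons and 394 for single genes kept their direction and side of the threshold or stayed within the replicate spread. Another 92 single-gene values no longer passed, and 30 for comparisons and 111 for single genes moved. The comparisons of receptor expansion, diversity, sharing and junction length and of the share of cluster 9 did not turn in direction in any setting tried. The Foxp3 share, 7.22 points higher in tdTomato+GFP+ at 2000 UMIs, was -0.102 at 1000 UMIs. Genes over 2-fold higher in every replicate were 73, 119 with 5 CPM added and 145 without ribosomal protein genes in the totals, a setting chosen after seeing the data; lower ones were 315 and 500 with 5 CPM. In the gate comparison, a replicate block gave 13 higher and 7 lower genes, and of the 12 named ones 10 passed, without Prr13 and Trav14-2 (edgeR adjusted p = 0.0582 and 0.0790); 12 were lower without the filter on low counts; leaving out single replicates gave 2 to 18 higher and 0 to 8 lower. Same-numbered residuals of the gates correlated at 0.0790, 0.0349 and 0.0897, each the best match, and same-numbered replicates shared 18, 23 and 33 clonotypes against 0 to 3 for other numbers, a hint from the data and not the labels that the numbers pair the gates. For expanded clonotypes (8 and 32), no replicate block gave 18 and 79, DESeq2 1 and 1, no filter 4 and 89, and beta chains alone 53 and 96; leaving out single replicates gave 1 to 8 and 2 to 71. Counting cells, where a large clone counts many times, gave 3 higher alpha V segments, and leaving out replicate 3 gave 0 to 1 beta segments, TRBV13-2. The causes were not tested. Depth limits the expanded cells (8594 to 35168 UMIs a replicate) and the tdTomato+GFP+ cells (17639 to 95220).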
